A study of Mus musculus with 8 samples.

Results

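The interferon-induced transmembrane genes Ifitm1, Ifitm2, Ifitm3 and Ifitm6 were followed across cultured mouse blood progenitors with and without Tcf1. The members were all probesets of the array that the platform annotation gives to exactly 1 gene among these 4 names, which came to 7 probesets of 21789 and 4 genes of 19938. Ifitm1 had 2 probesets, Ifitm2 had 3, and Ifitm3 and Ifitm6 had 1 each. The family was selected on the log2 levels of these probesets in all 3 groups of arrays, so its values are a description of these arrays, and no test of the 4 genes is offered as a finding.

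The 8 arrays held 3 groups. The first was wildtype (Tcf7+/+) T lineage cells, sorted as Thy1+CD25+ (2 replicates). The second was Tcf1-deficient (Tcf7-/-) lineage-negative cells, sorted as Mac1-Gr1-Thy1-CD25- (3 mice), and the third was wildtype lineage-negative cells of the same gate (3 mice). All 3 groups began as lymphoid primed multipotent progenitors (Lineage marker-Sca+kit+Flt3high) from bone marrow and spent 4 days on OP9-DL4, a stromal line that presents the Notch ligand DL4, with Flt3L at 5 ng/ml and IL1 at 1 ng/ml. Both genotypes came from a line backcrossed for about 6 generations and kept on a mixed background. The age of the mice is not given in the sources used here. Deficient progenitors gave no Thy1+CD25+ cells, so a deficient T lineage group does not exist and genotype can be compared only among lineage-negative cells. No Tcf7 reading was used here, and the genotypes rest on the labels alone.

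The labelled cell types were set against their markers. Of 10 T lineage markers, among them the CD3 chains and the gating genes Thy1 and Il2ra, 10 passed the test as higher in T lineage cells than in wildtype lineage-negative cells. Of all probesets 7.66% did so. Cd3g stood at 11.52 and 10.21 on the log2 scale in the T lineage arrays, between 4.99 and 5.16 in the deficient arrays and between 4.72 and 4.86 in the wildtype lineage-negative arrays. The lineage-negative cells carried dendritic and myeloid transcripts: 10 of 11 dendritic cell markers and 7 of 12 granulocyte and monocyte markers were lower in T lineage cells than in wildtype lineage-negative cells, and none was higher. Of all probesets 10.4% were lower. The lists include Flt3, by which the starting progenitors were sorted, and Itgam and Ly6g of the Mac1 and Gr1 gate. The summed log2 level of 6 mast cell and basophil markers was 11.57 to 11.76 in T lineage arrays. It was 9.85 to 10.55 in deficient and 10.03 to 10.50 in wildtype lineage-negative arrays. Against wildtype cells 1 of the 6 was higher and 0 were lower. Markers of OP9 stroma (11 genes) had a summed log2 level of 10.17 and 10.17 in the T lineage arrays, 10.20 to 10.39 in the deficient arrays and 10.11 to 10.16 in the wildtype lineage-negative arrays. None of the 11 passed between the lineage-negative genotypes, where only 1 of all probesets did (0.00459%). Sparc (7.20 to 7.32 in deficient and 6.62 to 6.84 in wildtype arrays) and Pdgfrb (8.21 to 8.58 and 7.87 to 8.10) were nevertheless higher in every deficient array.

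IFITM proteins are small membrane proteins that interferons induce and that hold back the entry of enveloped viruses by acting on the membrane where virus and cell fuse. IFITM1 sits mainly at the cell surface, while IFITM2 and IFITM3 sit mainly in endosomes and lysosomes. Stem cells and some lymphocytes express members of the family without interferon, and in mouse, Ifitm6 transcripts are known from neutrophils and monocytes. The 4 genes lie together in the mouse genome, in the annotated order Ifitm2, Ifitm1, Ifitm3, Ifitm6, with Ifitm5 before them.

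The promoters are shown because the 4 genes are neighbours that went different ways in T lineage cells. Each sequence runs from 250 bases before to 50 bases after the RefSeq start (GRCm38.p6). Capitals mark matches, on either strand, to the core of the interferon-stimulated response element (GAAA, a pair of any bases, GAAA), which interferon-activated STAT and IRF complexes bind, to the gamma-activated site (TTCNNNGAA), which STAT dimers bind, and to the core that TCF/LEF factors such as Tcf1 bind (CTTTGA).
Ifitm1 (chr7:140967826-140968125, plus strand): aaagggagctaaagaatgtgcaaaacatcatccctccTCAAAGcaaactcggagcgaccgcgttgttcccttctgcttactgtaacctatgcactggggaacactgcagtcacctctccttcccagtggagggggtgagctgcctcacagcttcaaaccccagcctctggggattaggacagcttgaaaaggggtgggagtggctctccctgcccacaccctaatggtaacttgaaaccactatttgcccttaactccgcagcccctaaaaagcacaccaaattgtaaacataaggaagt
Ifitm2 (chr7:140955912-140956211, minus strand): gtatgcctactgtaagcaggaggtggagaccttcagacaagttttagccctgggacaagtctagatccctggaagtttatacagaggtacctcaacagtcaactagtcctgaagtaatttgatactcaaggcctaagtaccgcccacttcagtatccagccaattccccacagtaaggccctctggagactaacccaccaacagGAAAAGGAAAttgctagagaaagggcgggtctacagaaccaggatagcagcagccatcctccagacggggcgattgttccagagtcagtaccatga
Ifitm3 (chr7:141010695-141010994, minus strand): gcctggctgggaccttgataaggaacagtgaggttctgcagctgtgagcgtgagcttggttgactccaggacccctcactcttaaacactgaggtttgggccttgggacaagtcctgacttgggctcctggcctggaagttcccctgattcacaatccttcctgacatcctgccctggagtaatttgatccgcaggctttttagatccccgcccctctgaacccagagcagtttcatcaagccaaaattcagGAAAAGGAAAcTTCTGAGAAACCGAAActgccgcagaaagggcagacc
Ifitm6 (chr7:141016843-141017142, minus strand): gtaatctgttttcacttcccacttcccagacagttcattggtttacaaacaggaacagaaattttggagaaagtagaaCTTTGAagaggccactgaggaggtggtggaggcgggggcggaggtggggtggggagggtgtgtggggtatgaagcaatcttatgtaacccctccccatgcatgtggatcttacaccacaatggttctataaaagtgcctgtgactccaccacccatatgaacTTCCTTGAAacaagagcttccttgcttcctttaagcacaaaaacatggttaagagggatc

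The interferon-stimulated core was found in the windows of Ifitm2 (1 match, first base at -46) and Ifitm3 (2 matches, first bases at 3 and 20 after the start), where the base before the start is -1. It was found in 3.44% of all 32851 mouse promoter windows of that length. The gamma-activated site was found in Ifitm3 (first base at 14, overlapping the interferon-stimulated match that begins at 20) and in Ifitm6 (at -10), against 8.30% of all windows. The TCF/LEF core was found in Ifitm1 (at -213, on the opposite strand) and in Ifitm6 (at -172), against 16.0% of all windows. The core bound by the myeloid factor PU.1 (GAGGAA) was found in none of the 4 windows, against 28.3% of all windows. The longest run shared by the Ifitm2 and Ifitm3 windows was caggaaaaggaaa, 13 bases, and it holds the interferon-stimulated match in both. The other 5 pairs of windows shared runs of 8 or 9 bases. These are matches of letters, and binding was not measured.

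Ifitm6 was the member that separated the sorted populations most. Its level on the log2 scale was 5.21 and 5.26 in the T lineage arrays. It was 7.88, 7.65 and 8.03 in the deficient lineage-negative arrays and 7.42, 8.10 and 8.49 in the wildtype lineage-negative arrays. All T lineage values lay below all lineage-negative values, with a gap of 2.40 to the deficient arrays and 2.16 to the wildtype lineage-negative arrays, while the lineage-negative genotypes overlapped. The T lineage readings lay below 6.55, the average log2 level under which the dimmest 40% of probesets fell, and close to that of the dendritic cell gene Clec9a in the same arrays (5.19 and 5.19). No detection level was used, so Ifitm6 in T lineage cells cannot be told from background. The folds given are estimates from the readings and not lower bounds, and background in the T lineage readings could make them too small. The T lineage readings were 6.82-fold lower than those of wildtype lineage-negative cells (log2 difference -2.77, SE 0.24, interval -3.30 to -2.24). Against deficient lineage-negative cells they were 6.15-fold lower (-2.62, SE 0.24, interval -3.15 to -2.09). In sorted populations measured as a whole, fewer cells of a type and less RNA per cell cannot be told apart.

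Ifitm2 was higher in T lineage cells in all 3 of its probesets. Probeset 10569014 stood at 12.03 and 11.77 in the T lineage arrays, 11.06, 11.28 and 11.31 in the deficient lineage-negative arrays and 11.10, 10.98 and 11.26 in the wildtype lineage-negative arrays. Probeset 10383756 stood at 11.74 and 11.55 in T lineage arrays, 11.00, 11.13 and 11.14 in deficient arrays and 10.92, 10.84 and 11.11 in wildtype lineage-negative arrays. In these and in probeset 10553299 both T lineage arrays lay above every lineage-negative array. Probeset 10553299 read 11.45 and 11.29 in T lineage arrays, 10.86, 10.93 and 10.91 in deficient arrays and 10.66, 10.62 and 10.88 in wildtype lineage-negative arrays. The log2 difference between T lineage and wildtype lineage-negative cells was 0.78 (SE 0.12), 0.69 (SE 0.10) and 0.65 (SE 0.10) in the 3 probesets, or 1.72-fold, 1.61-fold and 1.57-fold. Against deficient lineage-negative cells it was 0.68, 0.56 and 0.47.

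Ifitm3, the member best known for blocking influenza virus, was also higher in T lineage cells, by a smaller step. It stood at 12.28 and 12.25 in the T lineage arrays, 11.88, 11.80 and 12.00 in the deficient arrays and 11.81, 11.98 and 12.02 in the wildtype lineage-negative arrays. The T lineage arrays lay above all the others, by 0.25 over the highest deficient array and 0.23 over the highest wildtype lineage-negative array. The difference was 0.33 (SE 0.09, 1.26-fold) against wildtype and 0.37 (SE 0.09, 1.30-fold) against deficient lineage-negative cells. Its calls in the fit over all probesets were lost in both comparisons when either T lineage array was left out (differences of 0.31 and 0.35 against wildtype cells), against wildtype without wildtype lineage-negative array 1 (0.27) or 2 (0.35), and against deficient without deficient array 1 (0.37) or 2 (0.33).

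Ifitm1, bright in every group, differed least. Probeset 10558769 stood at 12.52 and 12.33 in T lineage arrays, 12.24, 12.29 and 12.39 in deficient arrays and 12.22, 12.29 and 12.35 in wildtype lineage-negative arrays, and the groups overlapped. Probeset 10570434 stood at 12.35 and 12.25 in T lineage arrays, 12.20, 12.15 and 12.21 in deficient arrays and 12.04, 12.17 and 12.18 in wildtype lineage-negative arrays, and here the T lineage arrays lay above the others by 0.03 at the narrowest. The differences between T lineage and wildtype lineage-negative cells were 0.14 (SE 0.09, 95% interval -0.06 to 0.33) and 0.17 (SE 0.08, -0.01 to 0.34). Against deficient lineage-negative cells they were 0.12 (SE 0.09) and 0.11 (SE 0.08). Without T lineage array 1 the differences of probeset 10558769 were 0.04 against wildtype and 0.02 against deficient cells, and without T lineage array 2 they were 0.23 and 0.21. For probeset 10570434 they were 0.12 and 0.06 without T lineage array 1, and 0.22 and 0.16 without T lineage array 2.

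**Figure D1:**
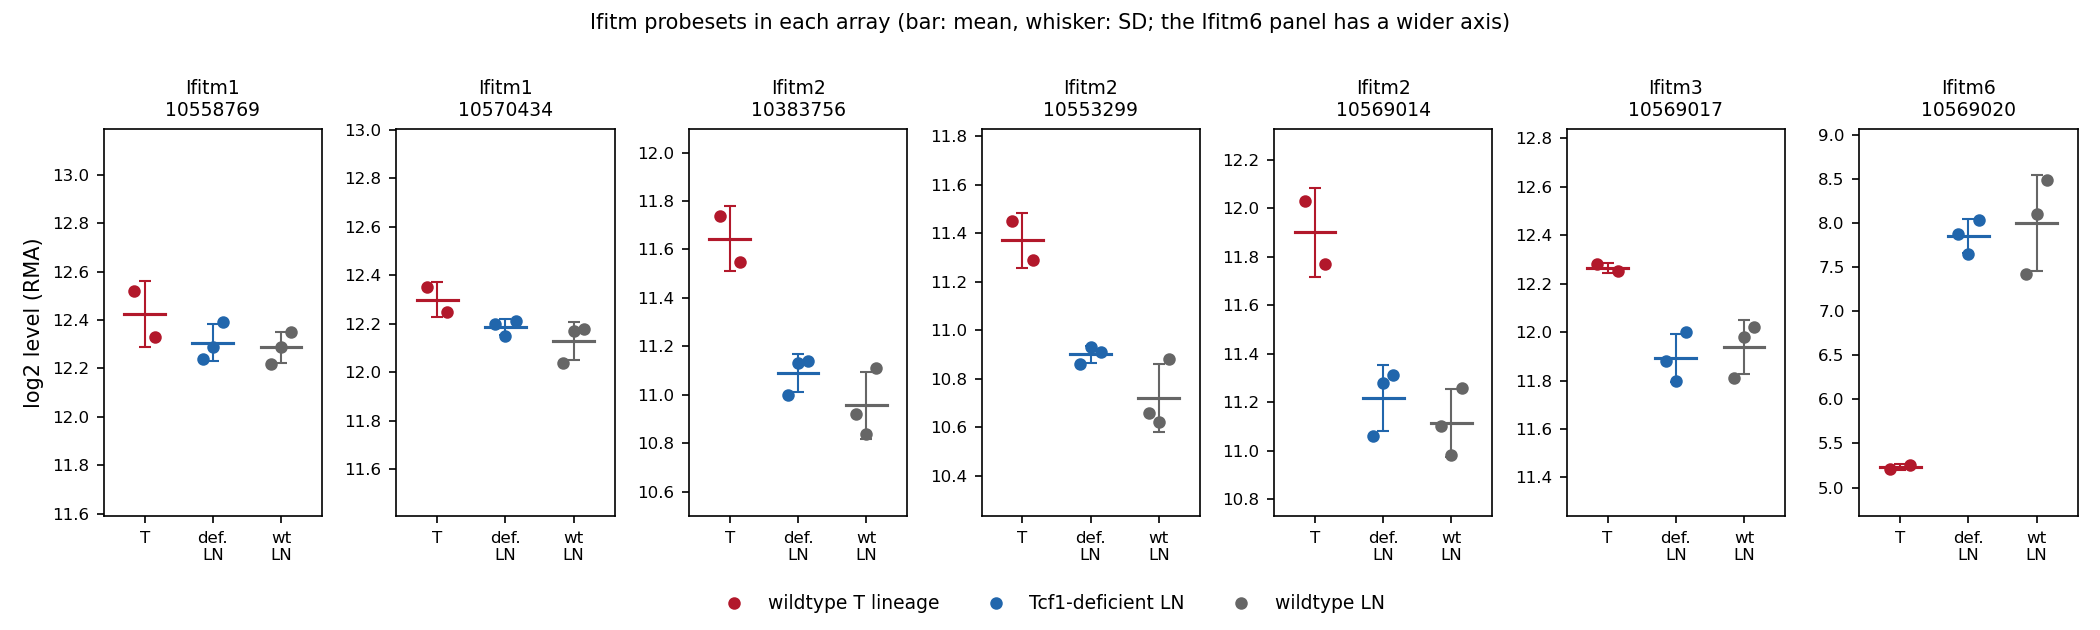
Log2 level of the 7 Ifitm probesets in each array, with T lineage, deficient lineage-negative and wildtype lineage-negative cells from left to right. Points are arrays, bars the group mean and whiskers the SD. The 2 T lineage arrays lie below all others for Ifitm6 (5.21 and 5.26) and above all others for the Ifitm2 and Ifitm3 probesets.

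In the fit over all probesets (limma, Benjamini-Hochberg adjusted p under 0.05), 5 of the 7 member probesets passed between T lineage and wildtype lineage-negative cells, where 18.0% of all probesets did. Of the 5, 4 were higher (7.66% of all probesets) and 1 was lower (10.4%). Between T lineage and deficient lineage-negative cells 5 of 7 passed, where 14.1% of all did, 4 higher (5.98%) and 1 lower (8.16%). Without T lineage array 1 the count against deficient cells was 3, with Ifitm3 and Ifitm2 probeset 10553299 the ones lost. Arrays did not overlap between groups for 6 of 7 probesets in both comparisons, against 47.8% of all probesets for wildtype (28.0% higher and 19.8% lower) and 40.7% for deficient lineage-negative cells (23.6% higher and 17.1% lower). The median difference of the 7 probesets was 0.33 against wildtype and 0.37 against deficient lineage-negative cells, where that of all probesets was 0.04 in both. The 2 comparisons share the T lineage arrays, and since the family was proposed with them in view, these shares describe the members only.

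**Figure D2:**
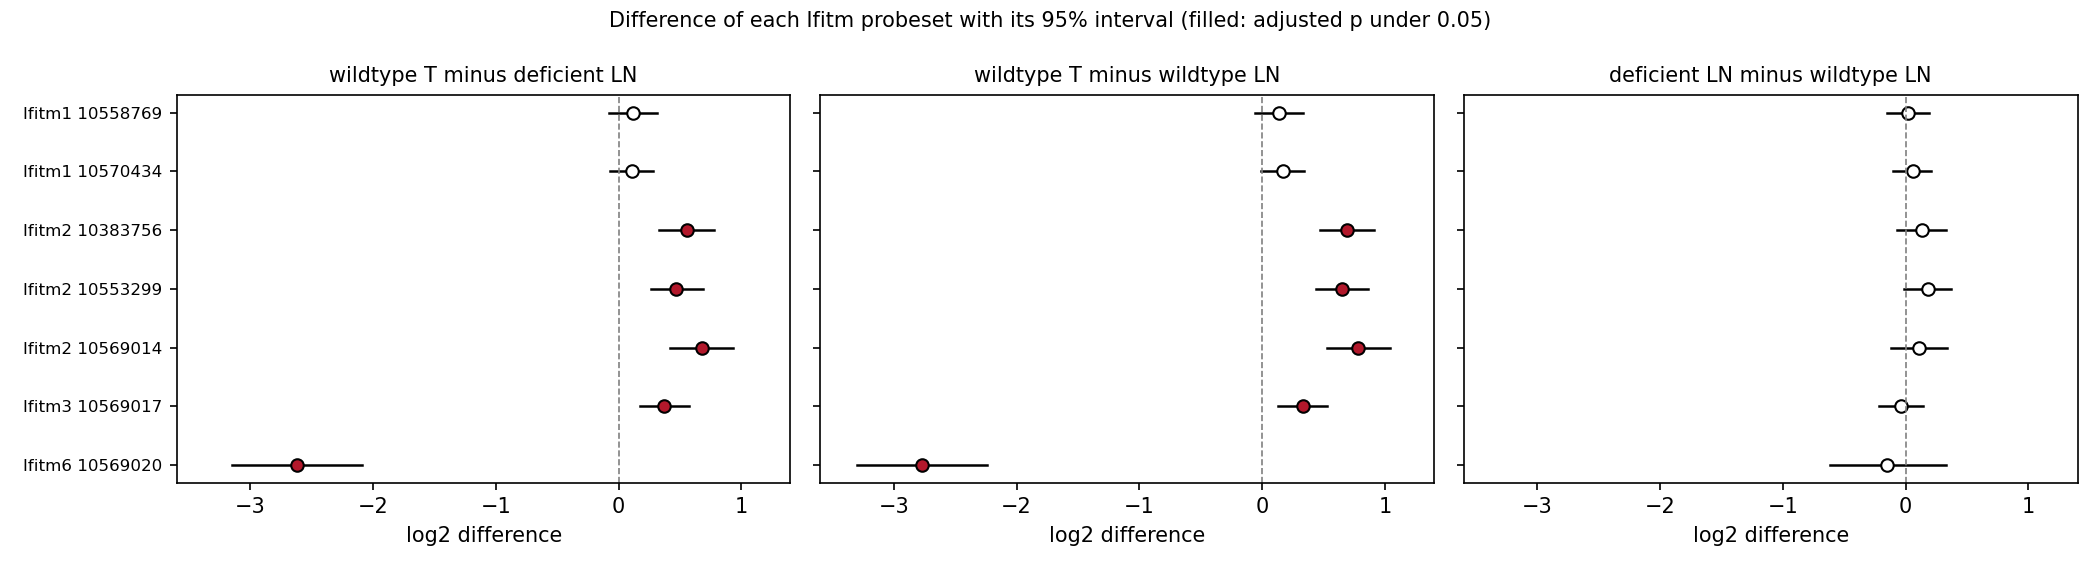
Log2 difference of each Ifitm probeset (horizontal axis) in the 3 comparisons, with its 95% interval from the fit to all 8 arrays and filled points for an adjusted p under 0.05. Ifitm6 lies at -2.62 and -2.77 in the T lineage comparisons, and the intervals of all 7 probesets reach across 0 between the lineage-negative genotypes.

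The loss of Tcf1 went with no difference in the family that passed the test among lineage-negative cells. Of the 7 probesets 0 passed between deficient and wildtype lineage-negative cells (0.00459% of all probesets did, which was 1 probeset), 0 of 7 had an unadjusted p under 0.05 (4.92% of all), and 0 of 7 had groups that did not overlap (9.95% of all). Ifitm6 differed by -0.15 (SE 0.21, 95% interval -0.62 to 0.33), with means of 7.86 ± 0.19 in deficient and 8.01 ± 0.54 in wildtype cells (SD, n = 3 each). The interval leaves room for a difference of that size in either direction. Without wildtype lineage-negative array 3 the difference of Ifitm6 was 0.10. The Ifitm2 probesets differed by 0.11, 0.13 and 0.18, Ifitm1 by 0.02 and 0.06, and Ifitm3 by -0.04, with upper ends of the intervals at or under 0.37. Leaving out 1 array moved the Ifitm2 differences between 0.04 and 0.19, 0.07 and 0.21, and 0.13 and 0.26, with the highest values without wildtype array 3 or deficient array 1 and the lowest without wildtype array 2, and moved that of Ifitm1 probeset 10570434 between 0.01 and 0.08. The order of the group means from high to low was T lineage, deficient, wildtype lineage-negative for Ifitm1 and Ifitm2, T lineage, wildtype, deficient for Ifitm3, and wildtype, deficient, T lineage for Ifitm6, and the arrays of deficient and wildtype lineage-negative cells overlapped for each of the 7 probesets.

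Probesets of the same gene gave the same direction in every comparison of all 8 arrays. The 3 Ifitm2 probesets correlated over the 8 arrays with r from 0.973 to 0.994, and with r from 0.87 to 0.97 once each group's mean was taken off. Their differences between T lineage and wildtype lineage-negative cells were at most 0.13 apart, and those between T lineage and deficient cells at most 0.21 apart. The 2 Ifitm1 probesets correlated with r = 0.851, or 0.78 for the deviations from group means, and their differences in that comparison were 0.03 apart. The probesets of each gene are annotated to the same accessions (5 for Ifitm2, 6 for Ifitm1), so they are repeat readings of the same arrays and not replicates. Family members resemble each other in sequence, and the probe sequences were not used here, so signal shared between Ifitm1, Ifitm2 and Ifitm3 probesets cannot be told apart from expression of the named gene. Probe positions were not used either, so whether each Ifitm1 and Ifitm2 probeset reads the named gene or a related copy was not checked.

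Correlations with Ifitm6 differed between all arrays and the deviations from group means. Over all 8 arrays the r between the Ifitm6 and Ifitm3 probesets was -0.76, and for deviations from the group means it was 0.89, although the 2 T lineage arrays went opposite ways in the pair. For Ifitm1 the values with Ifitm6 were -0.51 and -0.61 over all arrays, and 0.53 and 0.80 for the deviations, for probesets 10558769 and 10570434. With Ifitm6, the Ifitm2 probesets gave r from -0.89 to -0.85 over all arrays, and r from 0.22 to 0.48 for the deviations. These are descriptions over 8 arrays that share 1 normalisation and fall into T lineage and lineage-negative sets, with no test.

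Ifitm6 was followed beside the markers of myeloid cells, which the Mac1 and Gr1 gate was set to remove. In the wildtype lineage-negative arrays it was lowest in array 1 and highest in array 3. In the deficient arrays it was lowest in array 2 and highest in array 3. The mean log2 level of 12 granulocyte and monocyte markers was 8.50, 8.76 and 9.06 in wildtype lineage-negative arrays 1, 2 and 3. It was 8.59, 8.63 and 8.67 in the deficient arrays and 6.92 and 7.20 in the T lineage arrays. S100a8, which encodes a calcium-binding protein of granulocytes, stood at 5.76 and 5.35 in T lineage arrays, 9.47, 9.56 and 9.37 in deficient arrays and 9.27, 10.25 and 10.73 in wildtype lineage-negative arrays. In the deficient arrays it was thus highest where Ifitm6 was lowest. Over wildtype lineage-negative arrays 1 to 3, S100a9 and Lyz2 also rose, while Csf1r (9.99, 9.80 and 10.09), Csf3r and Itgam were lowest in array 2. Mpo stood at 10.69 and 11.54 in T lineage arrays and 11.51, 11.51 and 11.94 in wildtype lineage-negative arrays. The neutrophil surface gene Ly6g stayed between 4.53 and 4.87 in all 8 arrays. Ly6g and Itgam encode antigens of the Gr1 and Mac1 gate, so their levels in lineage-negative cells are not independent of the sort. Both are counted among the 12 markers. The summed log2 level of the marker list ran from 11.72 to 12.34 in T lineage, 13.00 to 13.25 in deficient and 13.02 to 13.69 in wildtype lineage-negative arrays, and that of 11 dendritic cell markers from 10.54 to 10.71, 13.48 to 13.71 and 13.68 to 13.92 in the same groups. The part that the mix of cells plays in the Ifitm6 difference was not tested.

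**Figure D3:**
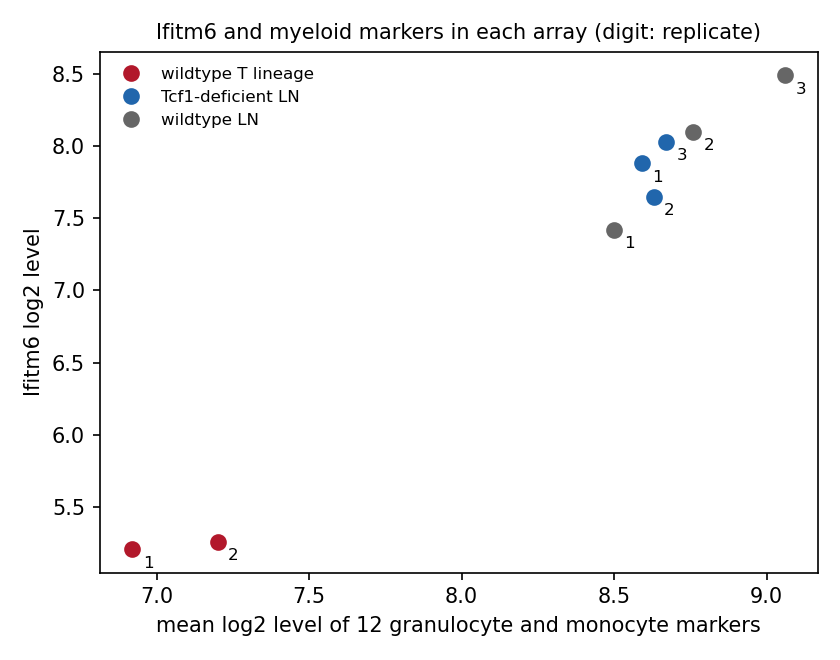
Ifitm6 log2 level (vertical axis) against the mean log2 level of 12 granulocyte and monocyte markers (horizontal axis) in each array, with the replicate number beside each point. The markers include the gating genes Itgam and Ly6g. T lineage arrays lie at 6.92 and 7.20 on the marker axis and all 6 lineage-negative arrays between 8.50 and 9.06, with wildtype array 3 highest on both axes.

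Genes whose pattern was most like that of a member were sought among the 1201 probesets that varied by at least 1 log2 unit over the 8 arrays. For Ifitm6 they were Cpq, a peptidase (r = 0.996), Hp, which encodes haptoglobin (0.995), and Anxa1, which encodes annexin A1 (0.994). Their group means went with the same split: Hp stood at 6.31 in T lineage, 7.89 in deficient and 8.01 in wildtype lineage-negative cells, and Anxa1 at 7.35, 9.28 and 9.54. For Ifitm2 probeset 10569014 they were Desi1, a peptidase (0.988), Hivep2, a zinc finger factor (0.987), and Lgals9, which encodes galectin-9 (0.986). Lgals9 was among the 3 nearest for every Ifitm2 probeset, with means of 11.11 in T lineage, 9.85 in deficient and 9.63 in wildtype lineage-negative cells. For Ifitm3 they were Plscr1, a phospholipid scramblase that interferon also induces (0.965), Pparg, a nuclear receptor (0.963), and Gimap5, a GTPase of lymphocytes (0.955). For Ifitm1, Gimap6 stood among the nearest for both probesets (0.920 and 0.915). The rest were Actn1 (0.973), Ly75 (0.961) and Gyg (0.959) for Ifitm2, and Adamts3 (0.930), Mir106a (0.884), Camk2a (0.894) and Iftap (0.887) for Ifitm1. The means of Adamts3, Mir106a and Gimap5 lay under 6.55, the cut of the dimmest 40% of probesets, in every group. So did the lineage-negative means of Hivep2 and the T lineage mean of Hp. Such readings cannot be told from background here. Each r is over 8 arrays in 3 groups. For Ifitm6, Ifitm2 and Ifitm3 it follows the gap between T lineage and lineage-negative arrays for the most part. The Ifitm1 probesets ranged over only 0.30 and 0.31 in all arrays, and the groups overlapped for probeset 10558769. Their r therefore also takes in the spread within groups.

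The genes beside the cluster moved less than Ifitm6, but only 0.252% of all probesets fell as far as Ifitm6 against wildtype cells. Their largest differences were near those of the Ifitm2 probesets (0.65 to 0.78) in size and above that of Ifitm3 (0.33). The 8 measured genes on either side were Bet1l, Ric8a, Sirt3, Psmd13, Cox8b, Nlrp6, Pgghg and Ifitm5 before it, and B4galnt4, Pkp3, Sigirr, Ano9, Ptdss2, Rnh1, Lrrc56 and Lmntd2 after it. Between T lineage and wildtype lineage-negative cells 3 of the 16 rose, 1 fell and 12 did not pass, where 7.66% of all probesets rose and 10.4% fell. The differences lay between -0.63 and 0.68, with a median of 0.06 where all probesets had 0.04. B4galnt4, a glycosyltransferase and the next measured gene after Ifitm6, rose by 0.68 (SE 0.09, limma adjusted p = 0.000395), with means of 7.09 ± 0.03 (SD, n = 2) in T lineage and 6.41 ± 0.08 (SD, n = 3) in wildtype lineage-negative cells. Its lineage-negative mean lay under 6.55, the cut of the dimmest 40% of probesets, and cannot be told from background. Rnh1, an inhibitor of ribonucleases, fell by 0.63 (SE 0.10, adjusted p = 0.00132). Pgghg, a glycosidase, rose by 0.42 (adjusted p = 0.00806), and Ifitm5, a family member known from bone-forming cells, by 0.44 (adjusted p = 0.0101). Between T lineage and deficient lineage-negative cells the counts were also 3, 1 and 12, where 5.98% of all probesets rose and 8.16% fell. Between the lineage-negative genotypes 0 of 16 passed, where 0.00459% of all probesets did, with differences from -0.12 to 0.06. The pseudogene Gm7514 and the long noncoding RNA Gm33504 lie between the members and had no probeset of a single gene.

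**Figure D4:**
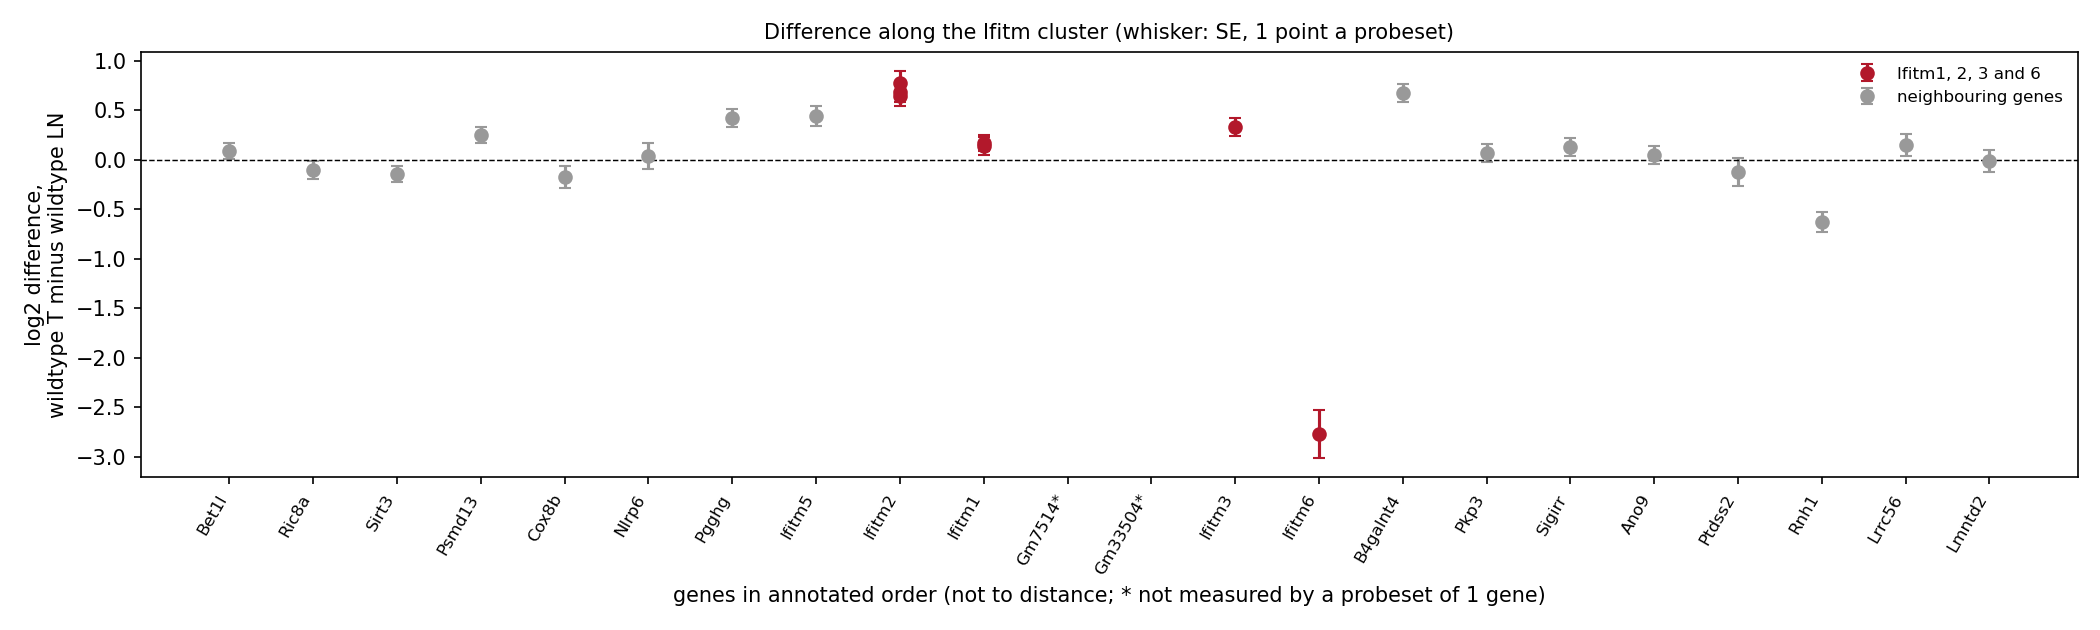
Log2 difference between T lineage and wildtype lineage-negative cells (vertical axis, whiskers SE) for the Ifitm members and the 8 measured genes on each side, in annotated order and not to distance. Ifitm6 at -2.77 lies between Ifitm3 at 0.33 and B4galnt4 at 0.68.

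The wider family was followed through its other measured genes. Of 7 measured genes of the wider CD225 family, 1 rose in T lineage cells against wildtype lineage-negative cells (Ifitm5), 0 fell and 6 did not pass, where 18.0% of all probesets passed and 7.66% rose, and the median was 0.06 where all probesets had 0.04. The other 6 differed by -0.01 to 0.11, among them Ifitm7 (0.01) and Ifitm10 (0.08). Ifitm5 also rose against deficient cells (0.39, adjusted p = 0.022). The count against wildtype cells was 0 without T lineage array 2, and against deficient cells it was 0 without either T lineage array, deficient array 2 or deficient array 3. Between the lineage-negative genotypes 0 of 7 passed, where 0.00459% of all probesets did, with Syndig1 at -0.11.

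Interferon response genes were lower more often than higher in T lineage cells. Of 35 measured, 2 rose, 12 fell and 21 did not pass against wildtype lineage-negative cells, with a median of -0.18 where all probesets had 0.04 and 18.0% of them passed. Samhd1, which depletes nucleotides and so restricts retroviruses, fell by 1.67 (SE 0.15, limma adjusted p = 3.07e-05). The antiviral GTPase gene Mx2 fell by 1.42 and Bst2, which encodes the virus tether tetherin, by 0.95 (SE 0.09), while Isg20, an exonuclease, rose by 1.02 (SE 0.11). The T lineage means of Mx2 (5.37), Mx1 (5.57), Ifit3 (5.66) and Irf7 (6.40), which are counted as falls, lay under 6.55, the cut of the dimmest 40% of probesets. So did the deficient means of Mx2 (6.44), Mx1 (6.53) and Ifit3 (6.39). Ifit1, Rsad2, Oas3, Cmpk2 and Cxcl10, counted as not passed, lay under it in every group. Such readings cannot be told from background. Against deficient lineage-negative cells 2 rose, 10 fell and 23 did not pass, where 14.1% of all probesets passed, with a median of -0.14; Samhd1 fell there by 1.61, Mx2 by 1.07 and Gbp3, a guanylate-binding protein, by 0.77, and Isg20 rose by 0.91. Between the lineage-negative genotypes 0 of 35 passed, where 0.00459% of all probesets did, and the median was 0.00. Bst2 stood at -0.47 (limma adjusted p = 0.198) and Mx2 at -0.35 (adjusted p = 0.872). Bst2 and Irf8 are themselves counted among the 11 dendritic cell markers, so the fall of that list is not a separate reading. The part that the mix of cells plays in these differences was not tested.

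Receptors and transducers of interferon signals were lower in T lineage cells for the most part. Of 17 measured, 1 rose, 9 fell and 7 did not pass against wildtype lineage-negative cells, where 7.66% of all probesets rose and 10.4% fell, and the median was -0.67 where all probesets had 0.04. Irf8, a factor of myeloid and dendritic cells, fell by 3.01 (SE 0.17), to 7.53 ± 0.39 (SD, n = 2) in T lineage cells, against 10.55 ± 0.26 (SD, n = 3) in wildtype lineage-negative cells. The interferon gamma receptor chain Ifngr2 fell by 2.07 (SE 0.09), the type I receptor chain Ifnar2 by 1.21 and the kinase gene Jak2 by 1.18, while its relative Jak1 rose by 0.53. Against deficient lineage-negative cells 2 rose, 8 fell and 7 did not pass (14.1% of all probesets passed and 8.16% fell), with a median of -0.44, where Irf8 fell by 2.93, Ifngr2 fell by 1.82, Ifnar2 fell by 1.12 and Jak2 fell by 0.98. Between the lineage-negative genotypes 0 of 17 passed, where 0.00459% of all probesets did, with Stat2 at -0.38 (limma adjusted p = 0.827) and Ifngr2 at -0.26 (adjusted p = 0.778).

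Proteins that bind or modify IFITM proteins were measured through 12 genes, of which 1 rose, 2 fell and 9 did not pass between T lineage and wildtype lineage-negative cells. Of all probesets 18.0% passed there, and the median was 0.06 where that of all probesets was 0.04. Fyn, a kinase that phosphorylates human IFITM3, fell by 1.13 (SE 0.08) to 9.39 ± 0.02 (SD, n = 2) in T lineage cells, against 10.52 ± 0.07 (SD, n = 3) in wildtype lineage-negative cells. Zdhhc20, a palmitoyltransferase, fell by 0.34 (adjusted p = 0.027), and Zmpste24, a membrane protease that works with IFITM proteins against viruses, rose by 0.41 (adjusted p = 0.0262). Against deficient lineage-negative cells 0 rose, 2 fell and 10 did not pass, where 14.1% of all probesets passed, with Fyn falling by 0.87 and Zdhhc20 by 0.33. Between the lineage-negative genotypes 0 of 12 passed, where 0.00459% of all probesets did, with Fyn at -0.26 (limma adjusted p = 0.688) and the tetraspanin gene Cd81 at 0.25 (adjusted p = 0.999). The count against wildtype cells was 1 without wildtype lineage-negative array 2 or 3 or without either T lineage array. The count against deficient cells was 1 without deficient array 1 or 3, without any wildtype lineage-negative array, or without either T lineage array.

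**Figure D5:**
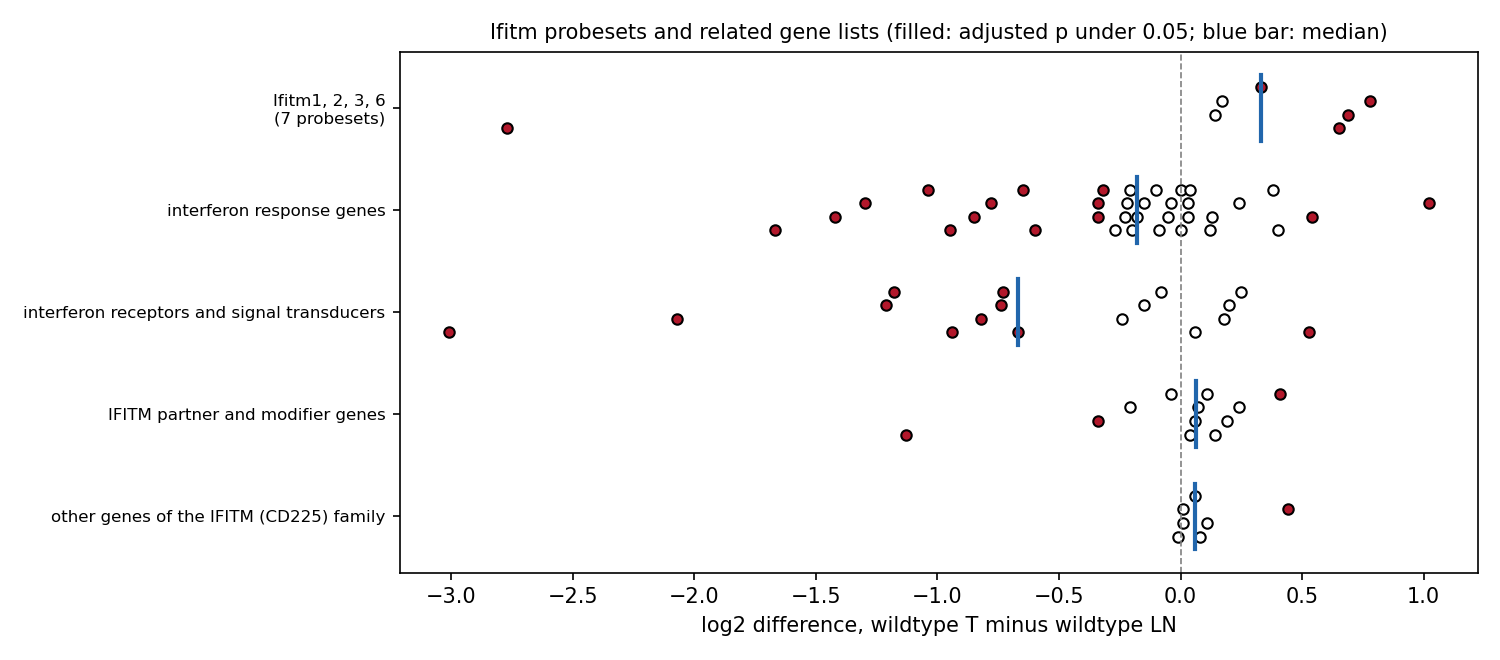
Log2 difference between T lineage and wildtype lineage-negative cells (horizontal axis) for the 7 Ifitm probesets and for each gene of 4 related lists, with filled points for an adjusted p under 0.05 and a bar at the list median. The Ifitm points run from -2.77 to 0.78, and the medians of the interferon lists lie at -0.18 and -0.67.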

How the data were processed

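Gene expression was measured on 8 arrays. The deposited log2 values came from RMA in Partek 6.5, per the submitters' processing notes, and their range fits a log2 scale. The genome build of the array is not given in the sources used here. The median log2 level of an array was 6.85 at the lowest and 6.91 at the highest, and arrays of a group correlated with r from 0.995 to 0.997. No detection level was used, and precision is limited by the few arrays a group.

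Of 35399 probesets, 11989 without a gene and 1621 with several were left out. The remaining 21789 (99.6% matched by gene ID to the RefSeq table) were fitted as 3 groups with limma 3.58.1 in R 4.3.3 (5 residual degrees of freedom, two-sided, Benjamini-Hochberg over all 21789, call at an adjusted p under 0.05). The fit was run 5 times on simulated arrays with known differences put into 200 probesets, far fewer than were called in T lineage comparisons. That checks the code and not the results. SE and intervals are limma's.

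The members and lists were chosen with earlier results of these data known. Named genes were the members, 3 of nearest pattern per member probeset, 8 neighbours a side, and up to 4 called genes of each list by smallest p (otherwise the 2 of largest difference); a gene with several probesets is given by that of smallest p. Genes named as markers, and the lists' remaining examples (Jak1, Ifitm7 and Ifitm10), were added after their values were seen. A promoter was matched by symbol for 4 of 4 members. Alternatives left out each array, blocked on the replicate number, fitted only the groups compared, renormalised, centred, filtered dim probesets, weighted arrays, used a trended robust prior, or tested all probesets.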

Additional observations from a re-analysis of the deposited data

How the results depend on the processing

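Under 16 alternatives Ifitm6 kept its fall in T lineage cells (differences from -3.06 to -2.53 against wildtype and -2.72 to -2.45 against deficient lineage-negative cells), and the Ifitm2 rise kept its direction (0.57 to 0.91 and 0.39 to 0.81 over its probesets). Leaving out 1 array gave Ifitm3 differences of 0.27 to 0.37 against wildtype and 0.33 to 0.43 against deficient cells, with calls lost against wildtype without wildtype lineage-negative array 1 or 2 or either T lineage array, and against deficient without deficient array 1 or 2 or either T lineage array. With all probesets tested it also missed the threshold, at 0.33 and 0.37, where more tests are corrected for. Ifitm2 probeset 10553299 against deficient cells ran from 0.39 to 0.56 and lost its call without T lineage array 1. Ifitm1 probeset 10570434 passed against wildtype with the trended robust prior (0.17). Member calls against deficient cells numbered 3 to 5 when 1 array was left out.

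Between the lineage-negative genotypes, signs near 0 turned: Ifitm1 probeset 10558769 ran from -0.02 to 0.05, being -0.02 without deficient array 3 or wildtype array 1, Ifitm3 from -0.11 to 0 (0 without deficient array 2), and Ifitm6 from -0.44 to 0.10 (0.10 without wildtype array 3). Among all 21789 probesets, 1 was called; leaving out 1 array gave 0 to 12, the replicate block 0, only the groups compared 2, a second quantile normalization 0, median centring 0, array weights 6, the trended robust prior 11 and all probesets 0. Median shifts of all probesets stayed under 0.1 throughout, and the share of higher calls was 51.7% after the second quantile normalization in the wildtype T lineage comparison, against 42.5%.

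Of the IFITM partner genes, 1 to 3 were called against wildtype without 1 array and 1 with all probesets, and 1 to 2 against deficient without 1 array and 1 with only the groups compared, median centring or all probesets. Of the wider family 0 to 1 was called without 1 array in either T lineage comparison, and 0 against deficient with the replicate block or all probesets. Same-numbered arrays had correlations of their deviations of -0.13, 0.02 and 0.04 between genotypes, 0.16 and 0.12 between T lineage and wildtype lineage-negative, and -0.14 and -0.25 between T lineage and deficient arrays. Differently numbered T lineage and wildtype lineage-negative arrays gave -0.16 to 0.02. The deviations of 2 arrays from their mean mirror each other, so these values cannot decide whether the numbers pair the arrays. The main fit did not pair them, and the block left 5 and 5 member calls in the T lineage comparisons. The causes of these changes were not tested otherwise.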
